A study of Mus musculus with 2 samples.

Results

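The 9 genes described here belong to the complement system. They are C1qa, C1qb and C1qc, the 3 chains of C1q, C4b, C2 and C3, which act after C1q in the classical pathway, Serping1, the C1 inhibitor, and C3ar1 and C5ar1, the receptors for the fragments C3a and C5a. The members were chosen by symbol, and all 9 were found among the 19059 genes of both libraries. The samples were hippocampi of aged C57BL/6 mice, bought in both sexes, which were 21 months old when the diets began. The control group ate standard chow and the tomatidine group ate chow with 0.05% tomatidine, a steroidal alkaloid of tomato, for 3 months. No genotype or other agent set the groups apart. Each group was 1 library made from 4 pooled mice, so differences between mice could not be measured, and no test of the diet was possible. All intervals below are 95% intervals that cover counting error only.

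Complement is a cascade of proteins that tags surfaces for removal. C1q binds a target and, with its proteases C1r and C1s, leads to the cleavage of C4 and C2, which together form the enzyme that cleaves C3. Serping1 inactivates C1r and C1s, and C3ar1 and C5ar1 are receptors through which released fragments signal to myeloid cells. In brain, C1q is known as a product of microglia and related macrophages, and complement tagging of synapses has been studied in development and ageing.

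The 2 libraries held 15912 control and 15185 tomatidine cells, of which 15115 and 14502 were used, with medians of 7077 and 7408 UMIs (unique molecular identifiers, one per captured probe product) per cell. The libraries shared 262 cell barcodes among the cells used. Marker genes of hippocampal neurons were present in both libraries, for example the dentate granule gene Prox1 at 188 and 149 CPM (a counts-per-million scale). Of 36 clusters, 10 were left unnamed and the others were named from marker lists, and 10 of the 13 named classes had at least 50 cells in each library and were compared. The classes were not equally represented. Choroid plexus-like cells numbered 343 in the control and 32 in the tomatidine library, and meningeal fibroblast-like cells made up 1.87% and 3.63% of the cells. Levels are given as CPM of the class, the UMIs of a gene over all UMIs of the class. Probe counts do not scale with transcript length, so levels were compared between classes and libraries for 1 gene, and never between genes.

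All 9 genes lie on the minus strand of the mm10 genome. The C1q genes sit side by side on chromosome 4, with C1qb at chr4:136880129-136886187, C1qc at chr4:136889804-136893065 and C1qa at chr4:136895917-136898803, separated by 3616 and 2851 bases. C4b (chr17:34728380-34743882) and C2 (chr17:34862604-34898265) lie on the same chromosome as C3 (chr17:57203970-57228136). Serping1 is at chr2:84765387-84775444, C3ar1 at chr6:122847138-122856161 and C5ar1 at chr7:16246743-16259540. C4b is nearly identical to its neighbour C4a, which was not analysed here, so C4b UMIs may include C4a transcripts.

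The promoters of C1qb and C1qc are shown because the C1q genes were measured in the same cells. Each line gives the 250 bases before the RefSeq start (GRCm38.p6, 5′ to 3′ on the minus strand, chr4:136886201-136886450 for C1qb and chr4:136892915-136893164 for C1qc). Capitals mark GGAAGT or, on the other strand, ACTTCC, a core recognised by ETS factors such as the myeloid factor PU.1; no other motif was searched.
C1qb: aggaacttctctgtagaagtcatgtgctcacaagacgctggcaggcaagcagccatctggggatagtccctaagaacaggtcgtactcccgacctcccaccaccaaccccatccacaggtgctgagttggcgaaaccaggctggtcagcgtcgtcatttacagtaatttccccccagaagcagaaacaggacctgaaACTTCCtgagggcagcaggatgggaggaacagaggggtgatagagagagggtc
C1qc: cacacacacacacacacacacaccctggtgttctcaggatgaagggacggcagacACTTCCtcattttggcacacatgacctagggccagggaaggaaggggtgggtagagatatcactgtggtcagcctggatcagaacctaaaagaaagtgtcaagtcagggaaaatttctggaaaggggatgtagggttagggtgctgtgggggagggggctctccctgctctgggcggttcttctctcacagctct
The match began at position -53 relative to the start in C1qb and at position -195 in C1qc. C5ar1 held matches at positions -190 and -72, and the windows of C3 and C3ar1 held none. RefSeq starts were not always the ends of the gene spans given above. The windows of C1qc, C3ar1 and C5ar1 (chr7:16259339-16259588) lay partly inside those spans. The C5ar1 matches lay inside the C5ar1 span, and the C1qc match lay outside the C1qc span. Of 32851 promoters of this length, 19.7% held the motif. RefSeq promoter entries were matched for 5 of the 9 genes; C1qa, C4b, C2 and Serping1 are named only.

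The 9 genes fell into 4 patterns over the classes. C1qa, C1qb, C1qc, C3ar1 and C5ar1 were highest in microglia-like and border macrophage-like cells. C2 and Serping1 were highest in meningeal fibroblast-like cells. C4b was highest in oligodendrocyte-like cells and was found in every class. C3 was low in most cells and was concentrated in border macrophage-like, ependymal-like and some astrocyte-like cells. Among the compared classes, both libraries gave the same leading class for each gene, except that the 2 phagocyte classes could not be ordered for C3ar1, whose counting intervals overlapped.

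**Figure D1:**
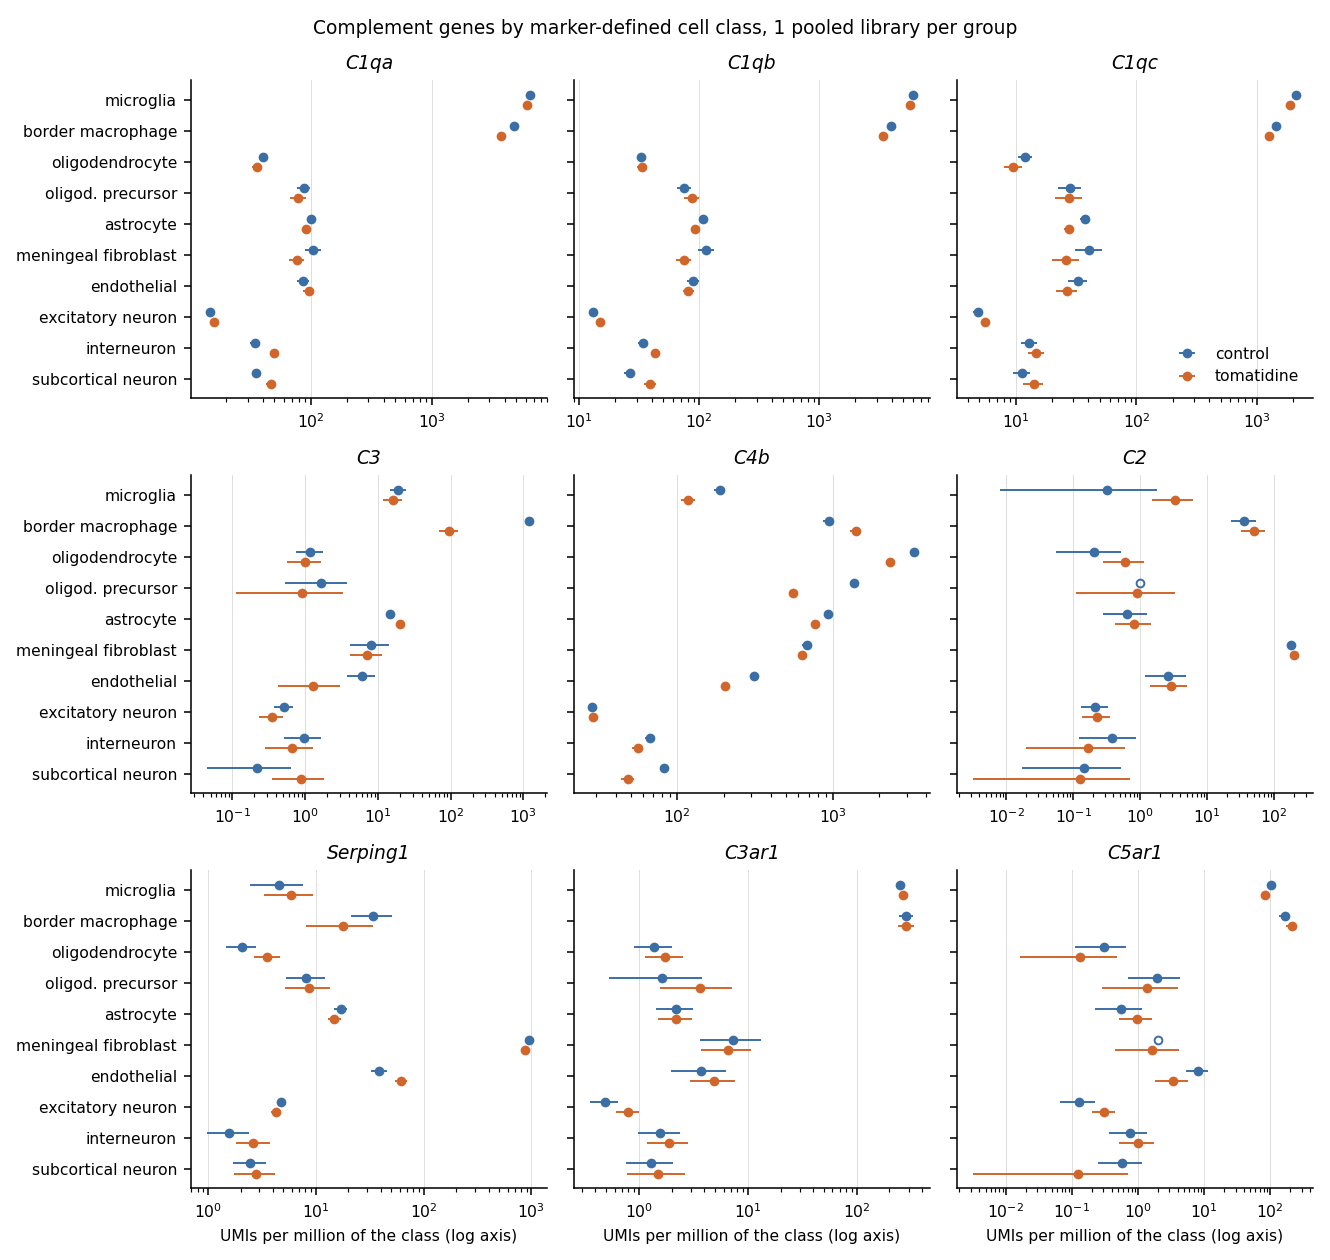
Level of each complement gene (CPM of the class, log axis) in the 10 compared marker-defined classes, with 1 point per library (blue control, orange tomatidine), bars for 95% Poisson intervals and an open circle at the level of 3 UMIs where none was counted. The C1q genes and both receptors stand out in the microglia and border macrophage rows, C2 and Serping1 in the meningeal fibroblast row, and C4b in the oligodendrocyte row at 3318 and 2342.

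Over whole libraries, C4b had 97115 control and 59894 tomatidine UMIs, and its CPM was 470 and 299, a log2 ratio of tomatidine over control of -0.65 (interval -0.67 to -0.64). C3 was 7.56 and 4.26 CPM (-0.83, -0.95 to -0.70), but 2 cells carried much of the control value. C2 was 1.65 and 3.0 CPM (0.86, 0.67 to 1.05) and Serping1 12.3 and 16.3 CPM (0.41, 0.33 to 0.48). C1qa, C1qb and C1qc were lower by small amounts, with log2 ratios of -0.19, -0.17 and -0.23. C3ar1 had 1275 and 1232 UMIs and a ratio of -0.01 (-0.12 to 0.11), and C5ar1 had 556 and 466 UMIs and a ratio of -0.21 (-0.39 to -0.03). Whole-library totals change with the share of each class as well as with the level within it, so the classes are described 1 by 1.

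A ratio was computed for the 78 pairs of a gene and a class with at least 20 UMIs over both libraries, and was counted as higher or lower when the log2 ratio was 0.32 or more in size and the counting interval lay off 0. By this rule 10 pairs were higher and 14 lower in the tomatidine library. In oligodendrocyte-like cells 1 of 7 genes was higher (Serping1) and 2 were lower (C4b and C1qc), where 10.1% of all genes were higher and 1.77% lower. In microglia-like cells none of 8 was higher and 1 was lower (C4b), beside 7.42% and 3.04% of all genes. In border macrophage-like cells 1 of 9 was higher (C4b) and 2 were lower (C3 and C1qa), beside 7.02% and 5.03%. In astrocyte-like cells 1 of 9 was higher (C3) and 1 lower (C1qc), beside 3.32% and 4.11%. In oligodendrocyte precursor-like cells none of 5 was higher and 1 was lower (C4b), beside 6.33% and 5.77%. In meningeal fibroblast-like cells none of 8 was higher and the 3 C1q genes were lower, beside 4.71% and 7.81%. In endothelial-like cells 1 of 9 was higher (Serping1) and 3 were lower (C4b, C3 and C5ar1), beside 6.41% and 5.89%. In excitatory neuron-like cells 2 of 9 were higher (C3ar1 and C5ar1) and none was lower, beside 11.0% and 1.23%. In interneuron-like cells 2 of 8 were higher (C1qa and C1qb) and none was lower, beside 6.68% and 1.93%. In cells like thalamic or other subcortical neurons 2 of 6 were higher (C1qa and C1qb) and 1 was lower (C4b), beside 7.02% and 5.75%. With 5 to 9 genes per class these counts are small numbers. C4b was the gene counted most often, lower in 5 classes and higher in 1.

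**Figure D2:**
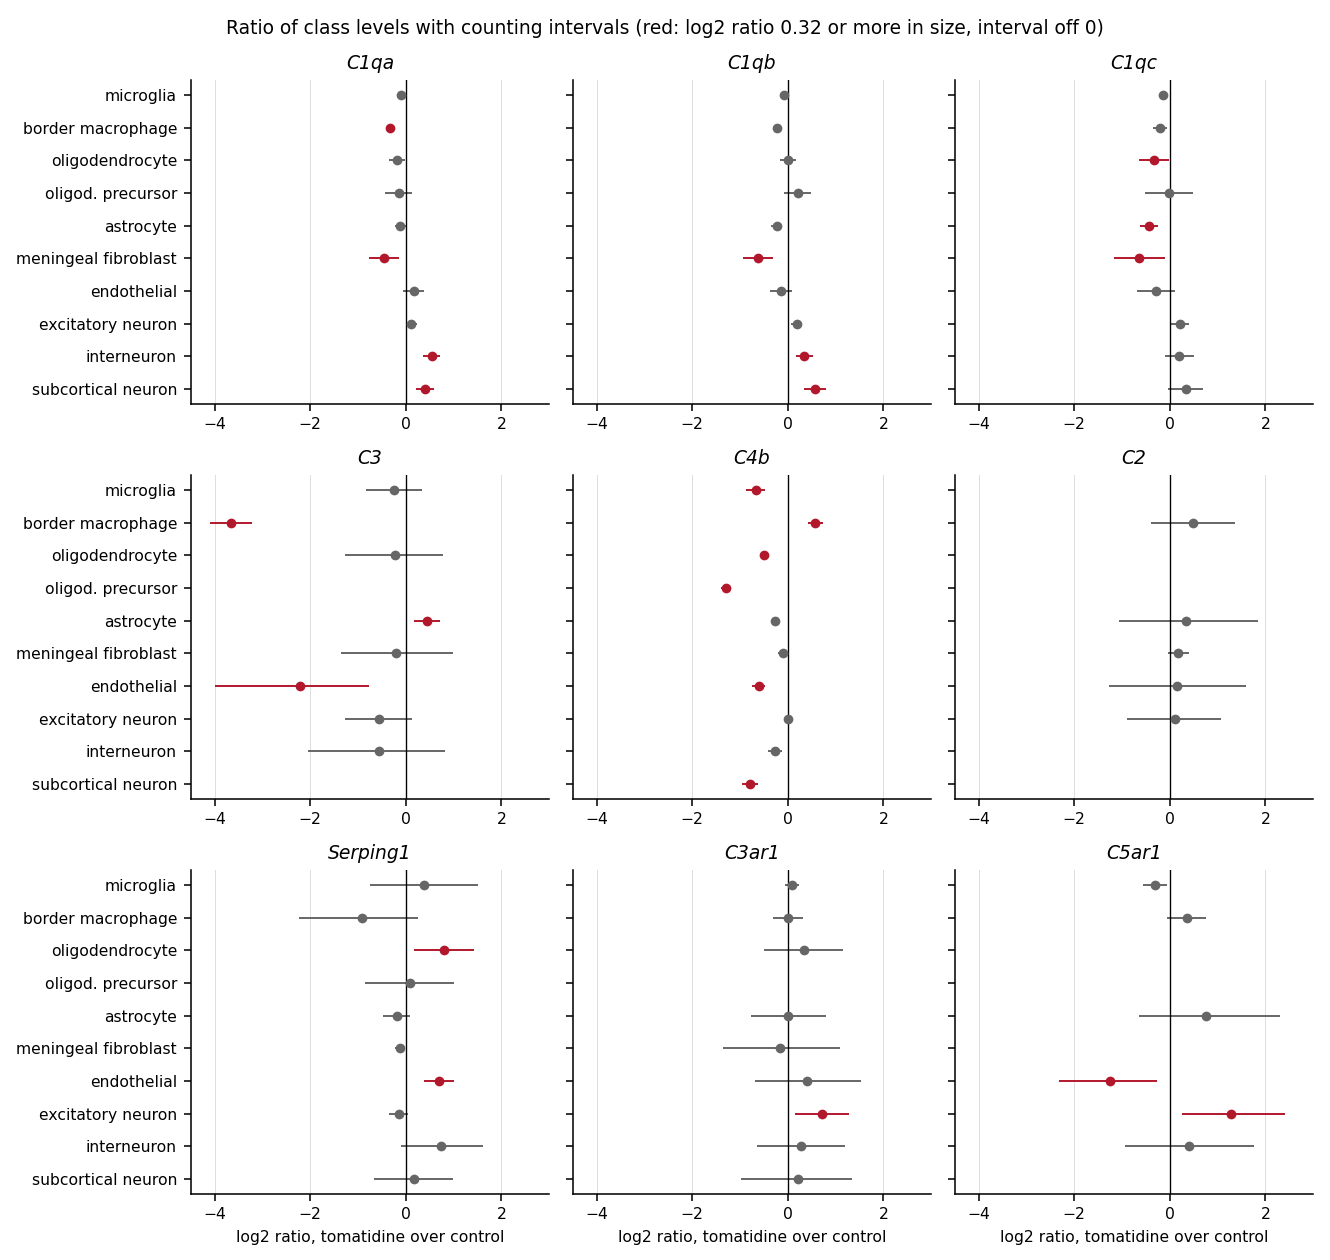
Log2 ratio of tomatidine over control level for each gene in the 10 compared classes, with bars for 95% counting intervals; red points are 0.32 or more in size with the interval off 0, grey points do not, and rows without a point had fewer than 20 UMIs. C4b lies left of 0 in most classes, C1q genes lie near 0 in microglia, and the wide bars of C2, C3ar1 and C5ar1 outside their leading classes rest on few UMIs.

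C1q was concentrated in microglia-like cells of both libraries. C1qa was 6542 CPM in control and 6130 CPM in tomatidine microglia-like cells, C1qb 6065 and 5726, and C1qc 2086 and 1885. The tomatidine level was slightly lower for each, with log2 ratios of -0.09 (-0.12 to -0.06), -0.08 (-0.11 to -0.05) and -0.15 (-0.20 to -0.09), all under the 0.32 limit in size; the median over all genes in the class was 0.04. The summed level of the 16 microglia markers was also lower, at 41564 and 37040 CPM, with 2 of 16 markers higher. The C1q chains together had 45692 UMIs beside 129251 marker UMIs in control, and 37730 beside 101703 in tomatidine microglia-like cells. Relative to these markers, C1q was therefore slightly higher in the tomatidine library. The counting intervals of the 2 quotients did not overlap. Microglia-like cells held 62.5% and 60.8% of all C1qa UMIs, and border macrophage-like cells held 9.57% and 6.91%.

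Nearly every microglia-like cell carried C1q. All 3 chains were counted in 774 of 863 control cells (89.7%) and in 669 of 779 tomatidine cells (85.9%), and the median cell had 42 and 37 C1q UMIs. With each cell thinned to 1500 UMIs, C1qa was found in 98.3% (97.0 to 99.1) and 98.7% (97.4 to 99.4) of microglia-like cells, against 2.29% and 2.19% of excitatory neuron-like cells, whose median depth was 15807 and 15229 UMIs before thinning. C1qc, the chain with the fewest UMIs, was found in 90.7% and 87.1%, a difference of -3.60 percentage points (-7.11 to -0.16).

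The order of the 3 chains by share of UMIs was alike in most classes. In microglia-like cells C1qa made up 44.5% and 44.6% of C1q UMIs, C1qb 41.3% and 41.7%, and C1qc the rest. In excitatory neuron-like cells, where C1qa was 14.6 and 15.8 CPM, C1qa made up 45.0% and 43.7% and C1qb 40.0% and 40.8%. The lowest and highest shares of C1qa over the 10 classes were 40.4% and 48.6%. The interval lay above the microglial share in control cells of the border macrophage-like (47.0%, 45.8 to 48.2), oligodendrocyte-like (47.5%, 45.0 to 49.9) and thalamic or other subcortical neuron classes (48.6%, 45.5 to 51.7), and below it in control astrocyte-like cells (40.7%, 39.0 to 42.5).

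**Figure D3:**
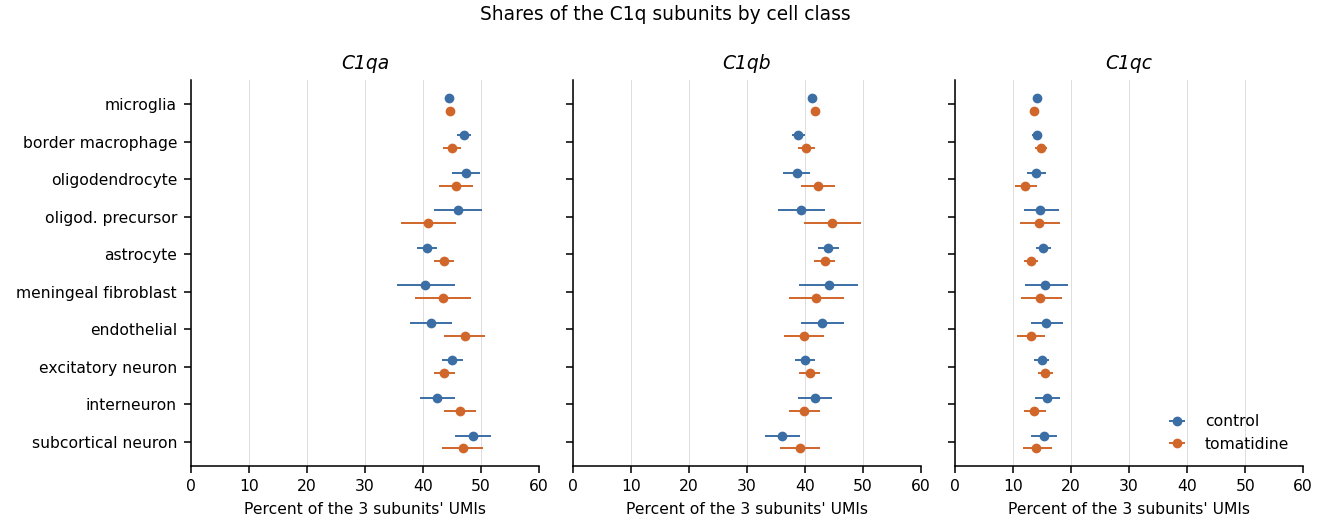
Share of C1qa, C1qb and C1qc among all C1q UMIs of a class (percent, linear axis from 0), by library, with exact binomial intervals. Microglia sit at 44.5% and 44.6% for C1qa, and the other compared classes lie between 40.4% and 48.6%.

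In several classes outside the phagocytes, a few cells held a large share of C1q, but not in oligodendrocyte-like cells, where cells with at least 10 C1q UMIs held 20.3% and 15.2% of the C1q UMIs. In astrocyte-like cells such cells held 50.4% and 41.98%. In the excitatory neuron-like class 48 of 4367 control cells and 43 of 3988 tomatidine cells had at least 10 C1q UMIs, and these held 45.7% and 51.3% of the C1q UMIs of the class. The same cells carried microglia markers at 2004 and 2749 CPM, against 79.9 and 82.2 CPM in the other cells of the class. The other cells had 17.9 CPM of C1q in both libraries. In interneuron-like cells 13 control and 21 tomatidine cells held 78.2% and 83.8% of the C1q UMIs, and the rest were at 18.5 and 18.8 CPM. C1qa in this class was 34.3 and 49.95 CPM (log2 ratio 0.54) and the 16 microglia markers summed to 288 and 348 CPM, with 14 of 16 higher. In the class of thalamic or other subcortical neurons C1qa was 35.5 and 46.9 CPM (0.40), and 1 tomatidine cell held 129 of the 373 UMIs; without the 5 cells with the most UMIs in each library the ratio was -0.40. With the marker gate C1qb in interneuron-like cells turned to -0.75. In meningeal fibroblast-like cells C1qa was 105 and 76.5 CPM (-0.45), C1qb 114 and 74.1 (-0.62) and C1qc 40.3 and 25.9 (-0.63). In that class the microglia markers summed to 732 and 613 CPM. The border macrophage markers there summed to 456 and 204 CPM, with 1 of 13 higher. The part of RNA or cell fragments of microglia or border macrophages in these values was not tested.

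Among border macrophage-like cells (153 control and 128 tomatidine cells), C1q was uneven. C1qa was 4769 and 3774 CPM (-0.34, -0.42 to -0.25). A single control cell held 451 of 3112 C1qa UMIs, and without the 5 cells with the most UMIs in each library the ratio was -0.15. The thinned share of cells with C1qa was 58.6% and 68.6%, a difference of 10.0 points (-1.80 to 21.3). This class also contained lymphocyte-marker cells: 48 control (31.4%) and 32 tomatidine cells (25%) held at least 2 of 15 lymphocyte markers. Without them C1qa was 6130 and 4789 CPM (-0.36), so the ratio hardly moved. In the whole class, microglia markers summed to 14575 and 11911 CPM, with 8 of 16 higher. Border macrophage markers summed to 19365 and 12211 CPM, although 10 of 13 were higher. The C1q chains together were at 696 (674 to 718) and 705 (677 to 733) UMIs per 1000 microglia-marker UMIs. Relative to these markers, C1q therefore hardly differed between the libraries.

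Microglia-like cells with a UMI of Cst7 or Itgax, genes that mark activated microglia, had more C1q than the others in both libraries. They numbered 189 of 863 control and 152 of 779 tomatidine cells and were also deeper, with medians of 3857 and 3494 UMIs against 2820 and 2736 in the others. C1qa was 8313 CPM with and 5903 CPM without these genes in the control library (log2 ratio 0.49) and 7844 and 5630 CPM in the tomatidine library (0.48). C1qb differed by 0.41 and 0.44 and C1qc by 0.26 and 0.48. C3ar1 was higher by 0.70 (0.49 to 0.91) and 0.75 (0.52 to 0.98), and thinned to equal depth it was found in 36.5% against 26.5% of control cells and in 37.7% against 27.9% of tomatidine cells. C5ar1 showed no such difference (-0.02 and 0.25, both intervals covering 0). C3 was the gene with the widest gap, at 47.3 against 8.75 CPM (2.43, 1.62 to 3.29) and 43.5 against 8.0 CPM (2.44, 1.52 to 3.41), but from 39, 20, 27 and 17 UMIs. These intervals compare cells within 1 library and do not stand for mice. The split pooled both microglia-like clusters, which differed in C1q and C3ar1 level as described below. The part of the clusters in these differences was not tested. Border macrophage markers in microglia-like cells summed to 977 CPM in the control and 304 CPM in the tomatidine library, with 7 of 13 higher. A microglia-like control cell held 12 of the 59 C3 UMIs of its class. It carried 146 border macrophage-marker and 100 microglia-marker UMIs. The part of border macrophages in the C3 gap was not tested.

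C4b, the mouse C4 gene that yields the C4 protein cleaved by C1s, was the member counted as different in the most classes. In oligodendrocyte-like cells, the myelin-forming glia, it was 3318 CPM (3292 to 3343) from 64892 UMIs in the control and 2342 CPM (2317 to 2366) from 35035 UMIs in the tomatidine library, a log2 ratio of -0.50 (-0.52 to -0.48). The class held 66.8% and 58.5% of all C4b UMIs. The median over all genes in the class was 0.06, and the 18 oligodendrocyte markers summed to a ratio of -0.10 with 8 of 18 higher. C4b per 1000 oligodendrocyte-marker UMIs was 47.7 (47.3 to 48.0) and 36.0 (35.7 to 36.4).

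The difference was spread over the class. The share of oligodendrocyte-like cells with C4b, thinned to 1500 UMIs, was 75.1% (73.5 to 76.6) and 63.1% (61.1 to 65.1), a difference of -12.0 points (-14.5 to -9.51); 59 control and 71 tomatidine cells were too shallow to thin. Without thinning the shares were 86.8% and 78.9%. The median cell of at least 1500 UMIs had 2308 CPM of C4b in the control and 916 CPM in the tomatidine library, whereas the 90th percentile was 8071 and 7697. The libraries differed more at the median than among the cells with the most C4b. The 2 oligodendrocyte-like clusters both had the lower level in the tomatidine library, at 3682 and 2747 CPM (-0.42) and at 2673 and 1581 CPM (-0.76). With finer clustering the 4 oligodendrocyte-like clusters gave ratios of -0.41, -0.43, -0.89 and -1.12. The last came from 55 control and 42 tomatidine cells, the latter fewer than the minimum for a compared class. In it the oligodendrocyte markers summed to 40095 and 17616 CPM, against 51543 and 45584 CPM in the cluster at -0.89. In the clusters at -0.41 and -0.43 they summed to 67224 and 63996 CPM and to 78770 and 77238 CPM. The part of the lower markers in these ratios was not tested.

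**Figure D4:**
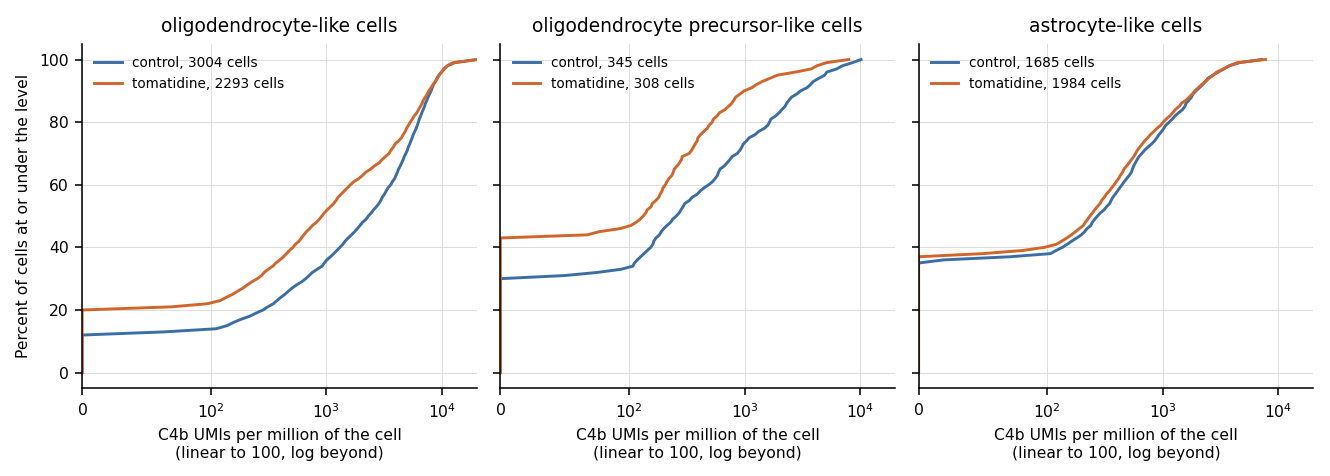
Percent of cells at or under a given C4b level (CPM of the cell, linear to 100 and logarithmic beyond) in oligodendrocyte-like, oligodendrocyte precursor-like and astrocyte-like cells with at least 1500 UMIs, by library. The tomatidine curve lies above the control curve over most of the range in the first 2 panels, with medians of 2308 and 916 in oligodendrocyte-like cells, and the 2 curves run close together in astrocyte-like cells.

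Oligodendrocyte precursor-like cells had 1363 and 555 CPM of C4b (-1.30, -1.39 to -1.20). In this class the 18 oligodendrocyte markers summed to 15824 and 9185 CPM, with 0 of 18 higher, while the 16 precursor markers summed to 15319 and 16655 CPM. C4b per 1000 oligodendrocyte-marker UMIs was 86.1 (83.4 to 88.9) and 60.4 (57.0 to 64.0), and the part of oligodendrocyte RNA in the lower C4b was not tested. At a finer clustering the precursor cluster had 321 control and 316 tomatidine cells, fewer oligodendrocyte-marker UMIs (4194 and 3130 CPM) and C4b at 553 and 302 CPM (-0.88, -1.02 to -0.73). Over the whole precursor-like class, not the finer cluster, the share of thinned cells with C4b was 44.4% and 29.3%, a difference of -15.1 points (-22.3 to -7.73).

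Astrocyte-like cells, the second main source of C4b with 11.9% and 18.8% of its UMIs, differed less, at 929 and 771 CPM (-0.27, -0.31 to -0.23). Their cluster with the most C4b had 2477 and 2345 CPM (-0.08) and the other large ones 294 and 242 (-0.28) and 1167 and 1075 (-0.12). The oligodendrocyte markers in astrocyte-like cells summed to 8099 and 6229 CPM. Meningeal fibroblast-like cells were at 680 and 637 CPM (-0.09, -0.21 to 0.02) and excitatory neuron-like cells at 28.4 and 28.5 CPM (0.01, -0.07 to 0.09). C4b in neurons sat beside the oligodendrocyte markers at 28.2 and 26.1 UMIs per 1000 marker UMIs; the part of oligodendrocyte RNA in this value was not tested.

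C4b was lower in microglia-like cells, at 187 and 117 CPM (-0.67, -0.87 to -0.47), where oligodendrocyte markers summed to 4286 and 3776 CPM; at the lower clustering resolution the ratio was 0.010. It was lower in endothelial-like cells, at 311 and 204 CPM (-0.61, -0.74 to -0.47), where oligodendrocyte markers summed to 4518 and 3730 CPM and astrocyte markers to 7188 and 5080 CPM; with stricter cell thresholds the ratio was 0.49. It was lower in the class of thalamic or other subcortical neurons, at 82.2 and 47.8 CPM (-0.78), with oligodendrocyte markers at 2912 and 3100 CPM; with the marker gate the ratio was -0.15. Border macrophage-like cells ran the other way, at 945 and 1404 CPM (0.57, 0.41 to 0.73), beside astrocyte markers at 1491 and 2788 CPM with 15 of 16 higher; without the lymphocyte-marker cells C4b was 1159 and 1712 CPM (0.56), and the ratio was 0.15 without integration and 0.024 without doublet removal. The part of these other cells' RNA was not tested.

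C3, the component on which all activation routes converge, was carried by few cells. It was found in 239 control and 232 tomatidine cells, 1.58% and 1.60% of all. Of 1562 control UMIs, 680 (43.5%) came from 2 border macrophage-like cells with 437 and 243 C3 UMIs. Both fell in the microglia-like class in 5 of the 6 alternative settings of cells and clusters, all but resolution 1.5. These cells also carried 917 and 351 C1q UMIs and 1305 and 1289 UMIs of the 13 border macrophage markers, out of 22331 and 16037 UMIs in all. No tomatidine cell had as many, and the highest was an ependymal-like cell with 138 C3 UMIs.

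**Figure D5:**
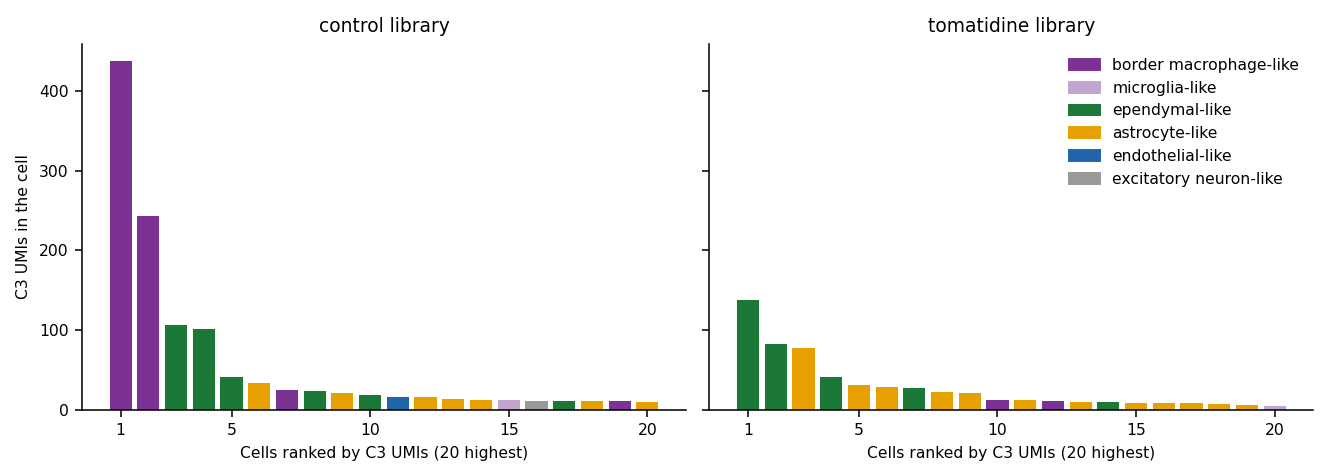
C3 UMIs in the 20 cells with the most C3 in each library, ranked, with bars coloured by cell class. The 2 tallest control bars, 437 and 243 UMIs, are border macrophage-like cells, and the tallest tomatidine bar, 138, is ependymal-like.

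These 2 cells held most of the control UMIs of their class. C3 in border macrophage-like cells was 1186 CPM from 774 control UMIs and 94.6 CPM from 48 tomatidine UMIs (-3.65, -4.10 to -3.23). The thinned share of cells with C3 was 9.60% and 8.41%, a difference of -1.19 points (-8.21 to 6.36). Without the 5 cells with the most UMIs in each library the class ratio was -1.54, and without integration it was 0.96; the whole-library ratio moved from -0.83 to -0.34 (-0.52 to -0.17). With the 2 pooled groups of 4 mice, which mouse gave the 2 cells cannot be told.

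Ependymal-like cells, which line the ventricles, were the other C3-rich cells, with 704 CPM in 35 control and 1319 CPM in 14 tomatidine cells. They held 23.5% and 36.0% of all C3 UMIs, and had too few cells for a comparison. Astrocyte-like cells were at 14.8 and 20.2 CPM (0.44, 0.17 to 0.72), and the cluster with the most C4b was also highest in C3, at 57.8 and 108 CPM (0.90). A single tomatidine cell held 77 of the 295 UMIs of the class, and without the 5 cells with the most UMIs in each library the class ratio was 0.16. The thinned share of astrocyte-like cells with C3 was 0.91% and 1.01%. In endothelial-like cells 21 control and 5 tomatidine UMIs gave a ratio of -2.22, and 1 control cell, rich in astrocyte markers, held 16 of the 21. Microglia-like cells had 59 and 44 UMIs, 19.0 and 16.0 CPM (-0.24, -0.84 to 0.34).

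C2, the protease that joins C4b in cleaving C3, was mainly a fibroblast transcript. Meningeal fibroblast-like cells held 264 of 342 control and 488 of 602 tomatidine UMIs, 77.2% and 81.1%. Their level was 177 CPM (156 to 200) and 201 CPM (183 to 219), a log2 ratio of 0.18 (-0.04 to 0.40). The thinned share of cells with C2 was 22.9% and 24.0%, against 0.05% and 0.04% in excitatory neuron-like cells. The class numbered 282 and 526 cells in the libraries, and the whole-library ratio was 0.86; the part of the class sizes in it was not tested. Border macrophage-like cells came next at 35.2 and 49.3 CPM from 23 and 25 UMIs (0.48, -0.39 to 1.37).

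Serping1, the inhibitor of C1r and C1s, followed the same cells. Meningeal fibroblast-like cells had 941 CPM (893 to 992) and 864 CPM (828 to 902), a ratio of -0.12 (-0.22 to -0.02), and held 55.1% and 64.0% of the UMIs. The whole-library ratio was 0.41, of the other sign. Endothelial-like cells had 38.4 and 62.1 CPM from 134 and 240 UMIs (0.69, 0.38 to 1.01). In them the meningeal fibroblast markers summed to 2211 and 2619 CPM, with 14 of 16 higher, and mural markers to 4934 and 6427 CPM; the part of these cells was not tested. The thinned share of endothelial-like cells with Serping1 was 4.24% and 5.20%, a difference of 0.96 points (-2.78 to 4.38), and 1 tomatidine cell held 29 of the 240 UMIs; with stricter cell thresholds the ratio was 0.0099. In oligodendrocyte-like cells 40 and 53 UMIs gave 2.05 and 3.54 CPM (0.79, 0.17 to 1.42), which kept its call in 4 of 8 alternatives and turned to -0.20 with the marker gate.

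The 2 anaphylatoxin receptors were phagocyte genes. C3ar1 was 251 CPM (233 to 269) and 265 CPM (246 to 285) in microglia-like cells (0.08, -0.07 to 0.23) and 285 CPM (245 to 329) and 286 CPM (241 to 336) in border macrophage-like cells (0.00, -0.32 to 0.33). The microglial interval lay within 0.32 of 0 on both sides, although differences between mice were not measured. The thinned share of microglia-like cells with C3ar1 was 29.1% and 30%. C5ar1 was 103 CPM (91.9 to 115) and 83.4 CPM (73.0 to 94.9) in microglia-like cells, a ratio of -0.30 (-0.55 to -0.05) just under the 0.32 limit in size, and 166 and 211 CPM in border macrophage-like cells (0.35, -0.05 to 0.75). In microglia-like cells, 364 control and 335 tomatidine cells had C3ar1, 208 and 159 had C5ar1, and 136 and 112 had both.

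Elsewhere the receptors were close to the lowest levels that could be counted. In excitatory neuron-like cells C3ar1 had 46 and 67 UMIs (0.71, 0.15 to 1.29) and C5ar1 12 and 26 UMIs (1.29, 0.25 to 2.41), with 8 of the 26 in 1 cell. With stricter cell thresholds the C3ar1 ratio turned to -0.32. Thinned shares there were 0.13% and 0.14% for C3ar1 and 0.05% and 0.05% for C5ar1, and microglia markers in the class summed to 114 and 128 CPM. In endothelial-like cells C5ar1 had 28 and 13 UMIs (-1.26), and 1 control cell held 24 of the 28.

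The microglia-like cells comprised 2 clusters, of 1028 and 614 cells, which differed in level more than the libraries did. C1qa was 7743 and 7634 CPM in the larger and 3276 and 3037 CPM in the smaller. C3ar1 was 309 and 339 CPM in the larger and 90.9 and 112 CPM in the smaller, and C5ar1 127 and 111 against 38.3 and 26.7 CPM. C4b had the opposite order, 134 and 82.3 CPM in the larger and 330 and 189 CPM in the smaller. The smaller cluster also carried astrocyte markers, a share of 0.812 of which was raised in it.

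Across the 20 class-by-library values of log2(CPM + 1), genes whose pattern was most like each member were, for C1qa, Ctss (r = 0.997), Mpeg1 (0.996) and Csf1r (0.996). For C1qb and C1qc they came from Csf1r, Ctss, Fcrls and Mpeg1, all at 0.996 or more. For C3ar1 they were Tbxas1 (0.996), Cysltr1 (0.996) and Neurl3 (0.995), and for C5ar1 Wdfy4 (0.987), Ncf4 (0.986) and Gpr183 (0.986). For Serping1 they were Col4a6 (0.985), Fmod (0.971) and Col1a2 (0.968), and for C2 Cdh1 (0.970), Dapl1 (0.924) and Pheta2 (0.923). C4b was less closely followed, by Fam234a (0.942), Tmbim1 (0.935) and Cyp20a1 (0.929), and C3 least, by AB124611 (0.899), Ccl5 (0.895) and Mapkapk3 (0.894). Among the members, C1qa and C3ar1 had r = 0.983, C2 and Serping1 0.865, and C1qa and C4b 0.241. These values are Pearson's r over 10 classes that share 2 libraries and describe likeness only. Csf1r, Ctss, Fcrls, Fmod and Col1a2 were on the marker lists that named the classes, so their likeness was partly built in.

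Of 50 other complement genes on a list, 49 were found. By the same rule 3 of 19 were higher and 0 lower in microglia-like cells, beside 7.42% and 3.04% of all genes. In border macrophage-like cells 3 of 19 were higher and 2 lower, beside 7.02% and 5.03%. In oligodendrocyte-like cells 2 of 24 were higher and 1 lower, beside 10.1% and 1.77%, and in oligodendrocyte precursor-like cells 2 of 18 higher and 1 lower, beside 6.33% and 5.77%. In astrocyte-like cells 1 of 28 was higher and 3 lower, beside 3.32% and 4.11%. In meningeal fibroblast-like cells 2 of 22 were higher and 2 lower, beside 4.71% and 7.81%, and in endothelial-like cells 2 of 22 higher and 1 lower, beside 6.41% and 5.89%. In excitatory neuron-like cells 8 of 32 were higher and 0 lower, beside 11.0% and 1.23%. In interneuron-like cells 4 of 25 were higher and 2 lower, beside 6.68% and 1.93%, and in the class of thalamic or other subcortical neurons 1 of 22 was higher and 4 lower, beside 7.02% and 5.75%. The median log2 ratio of these genes was 0.00 in microglia-like, 0.15 in border macrophage-like and 0.03 in oligodendrocyte-like cells. That of the members with a ratio there was -0.12, -0.20 and -0.18, and that of all genes was 0.04, 0.06 and 0.06. In the neuron classes the member median lay above that of all genes. Excitatory neuron-like cells had 0.12 beside 0.05, interneuron-like 0.31 beside 0.04, and thalamic or other subcortical neuron-like 0.27 beside 0.02. In the interneuron and subcortical classes these medians covered 8 and 6 genes, the C1q genes among them. There, cells with at least 10 C1q UMIs, which carried microglia markers, held 75.8% to 83.8% of the C1q UMIs. The member median lay below that of all genes in astrocyte-like (-0.11 beside 0.003), endothelial-like (-0.13 beside 0.02), meningeal fibroblast-like (-0.18 beside -0.04) and oligodendrocyte precursor-like cells (-0.01 beside 0.03).

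By role, the soluble regulator Clu (clusterin) was 6694 and 6104 CPM in astrocyte-like cells (-0.13). Vtn (vitronectin) was 3391 and 4850 CPM in meningeal fibroblast-like cells (0.52, 0.47 to 0.56). In the lectin pathway, Colec12 was 586 and 449 CPM in meningeal fibroblast-like cells (-0.38), Fcna 132 and 168 CPM in border macrophage-like cells (0.35, -0.10 to 0.80), Masp1 52.6 and 59.3 CPM in oligodendrocyte precursor-like cells (0.17) and Colec11 1.43 and 1.70 CPM in excitatory neuron-like cells (0.25). The terminal component C7 was 1.19 and 1.23 CPM in excitatory neuron-like cells (0.04).

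Among membrane regulators, Csmd1 was 130 and 147 CPM (0.18) and Susd4 255 and 247 CPM (-0.05) in excitatory neuron-like cells. Csmd2 (0.24) and Csmd3 (0.19) were highest in oligodendrocyte precursor-like cells, and Cd59a, which blocks the membrane attack complex, was 73.6 and 75.5 CPM in endothelial-like cells (0.04). Of the receptors, the CR3 chain Itgam was 914 and 855 CPM in microglia-like cells (-0.10) and its partner Itgb2 1057 and 639 CPM in border macrophage-like cells (-0.73, -0.92 to -0.53). In border macrophage-like cells Itgam was lower as well, at 408 and 241 CPM (-0.76, -1.08 to -0.45). C5ar2 was 141 and 154 CPM in microglia-like cells (0.12), and Lrp1 2084 and 2298 CPM in oligodendrocyte precursor-like cells (0.14). Cd93 (-0.10), C1qbp (-0.12) and Calr (0.15) differed by less than 0.32 in their leading classes. Of the genes named here by role, 3 passed the rule in their leading class, Vtn upward and Colec12 and Itgb2 downward.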

How the data were processed

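Hippocampal cells of 2 pooled libraries (1 control, 1 tomatidine) were profiled with a probe-based fixed RNA kit. The authors' alignment was to mm10, and what they deposited were filtered UMI counts, whole numbers without normalization. The submitters' processing notes name Cell Ranger 8.0.0, and the matrix headers name 7.1.0. Everything after these counts was computed from them.

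The cell filter of the study's methods was applied: a minimum of 500 UMIs, more than 250 genes, a complexity (log10 genes divided by log10 UMIs) over 0.8 and a mitochondrial share below 20%. Scrublet (scanpy 1.11.5) called 0 and 2 doublets, so the top 2% by its score were dropped per library instead, 308 and 296 cells. Seurat 5.3.0 (R 4.3.3) was used for RPCA integration and clustering (resolution 0.8, 30 principal components, 2000 variable genes), leaving out 62 complement and sex-linked genes. Clusters were named "X-like" from marker lists when at least 3 markers were raised (2-fold, in 10% of cells) and the class led alone, so names are rebuilt and differences from the study may come from them.

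The members and lists were chosen with earlier results of these data known. UMIs were summed per class and library. Sums have exact Poisson intervals, shares Clopper-Pearson, differences of shares Newcombe and log2 ratios exact conditional binomial intervals (95%). These cover counting error only, and a count of 0 allows up to 3 UMIs. With 1 library per group no p-value was computed. Shares of cells with a UMI were compared after thinning each cell to 1500 UMIs. All members were named in every class, with the 3 genes most like each (at least 100 UMIs) and the 20 most counted other complement genes with at least 100 UMIs in their leading class. Alternatives were resolutions 0.3 and 1.5, no integration, no doublet removal, stricter cell thresholds (under 6000 genes and 10% mitochondrial UMIs), a per-cell gate of 5 markers, TMM scaling (edgeR 4.0.16) and means over cells. The ratio and thinning code was tested on simulated data. C4a, Clec7a and Cx3cr1 were not analysed here, and 1 gene that the naming rule chose is not reported here. Promoter sequences are from RefSeq (GRCm38.p6).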

Additional observations from a re-analysis of the deposited data

Results flagged for a closer look

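With 1 library per group no difference between classes was tested; the ratios below are named because the same gene was higher by 0.32 or more in some classes and lower by as much or more in others, with counting intervals off 0. Values are log2 ratios of tomatidine over control.

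For C4b, border macrophage-like cells were higher (0.57), whereas oligodendrocyte-like (-0.50), oligodendrocyte precursor-like (-1.30), microglia-like (-0.67), endothelial-like (-0.61) and thalamic or other subcortical neuron-like cells (-0.78) were lower. The microglial value was 0.010 at resolution 0.3, the endothelial value 0.49 with stricter thresholds, and the macrophage value 0.024 without doublet removal. The macrophage value rested on 617 and 712 UMIs in 153 and 128 cells, and the oligodendrocyte value on 64892 and 35035 UMIs in 3063 and 2364 cells. In the macrophage class the 16 astrocyte markers summed to 1491 and 2788 CPM and the 18 oligodendrocyte markers to 5088 and 3460 CPM, and their part in the result was not tested.

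For C3, astrocyte-like cells were higher (0.44), whereas border macrophage-like (-3.65) and endothelial-like cells (-2.22) were lower. Without the 5 cells with the most UMIs in each library the macrophage ratio was -1.54 and the astrocyte ratio 0.16, and the endothelial ratio rested on 21 and 5 UMIs.

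C1qa was higher in interneuron-like (0.54) and thalamic or other subcortical neuron-like cells (0.40) and lower in border macrophage-like (-0.34) and meningeal fibroblast-like cells (-0.45). C1qb was higher in interneuron-like (0.35) and thalamic or other subcortical neuron-like cells (0.57) and lower in meningeal fibroblast-like cells (-0.62). The higher values turned in some alternatives: without the 5 cells with the most UMIs C1qa and C1qb were -0.40 and -0.39 in the class of thalamic or other subcortical neurons, with stricter thresholds -0.81 and -0.65, and C1qb in interneuron-like cells was -0.75 with the marker gate. In these 2 neuron classes, cells with at least 10 C1q UMIs held 75.8% to 83.8% of the C1q UMIs and carried microglia markers at 3304 to 4016 CPM. C5ar1 was higher in excitatory neuron-like cells (1.29, from 12 and 26 UMIs) and lower in endothelial-like cells (-1.26, from 28 and 13 UMIs).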

How the results depend on the processing

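No paired analysis was possible because each group has 1 library, so the groups share fewer than 2 replicate numbers. Of the 24 pairs past the rule, 13 kept their direction under every alternative that gave a value. Of these, 4 also stayed past the rule wherever an interval was computed. They were C4b in oligodendrocyte-like and oligodendrocyte precursor-like cells, and C3 and C5ar1 in endothelial-like cells. An interval was computed in 8 alternatives for each C4b pair, but in only 5 for C3 and 6 for C5ar1. A single control cell held most of the control UMIs of C3, and likewise of C5ar1, in endothelial-like cells. Without the 5 cells with the most UMIs, too few were left there for a ratio, so that alternative could not test either pair. The cause of the changes was not tested. The lower C4b of oligodendrocyte-like cells (-0.50) kept its direction: -0.47 without doublet removal, -0.43 with stricter thresholds, -0.87 with the marker gate, -0.56 with TMM scaling and -0.37 as a mean over cells. Its share difference at 2 or more UMIs was -14.6 points. In microglia-like cells C1qa was -0.28 (gate) and -0.13 (TMM), C1qb -0.051 (stricter), -0.26 (gate), -0.12 (TMM) and -0.016 (mean over cells), and C1qc -0.30 (gate). Serping1 in fibroblast-like cells was -0.24 as a mean over cells.

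C3 in border macrophage-like cells depended on the class borders: 0.96 without integration and 0.70 without doublet removal, where the 2 control cells richest in C3 fell in the microglia-like class, and -1.92 as a mean over cells. C5ar1 there was -0.23 and -0.40 under the same first 2 settings. At resolution 0.3, with stricter thresholds and with the gate this class was absent or under 50 cells in a library and gave no value. Leaving out the 5 cells with the most UMIs of the gene, or the lymphocyte-marker cells, was chosen after seeing the data; the first gave -1.54 for C3 in this class and -0.34 over the whole library. Pairs counted higher were 6 of 76 without doublet removal, 5 of 56 with stricter thresholds and 3 of 60 with the gate, against 10 of 78; those counted lower were 15, 14 and 14, against 14.

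Directions reversed elsewhere. C1qa in macrophage-like cells was 0.17 as a mean over cells, and in fibroblast-like cells 0.0700 with the gate. In the class of thalamic or other subcortical neurons C1qa was -0.81 (stricter), -0.44 (gate), -0.77 (mean) and -0.40 (without 5 cells), and C1qb -0.65 (stricter), -0.65 (mean) and -0.39 (without 5 cells). C1qb in interneuron-like cells was -0.75 (gate) and -0.054 (mean). C3 in astrocyte-like (-0.24) and Serping1 in oligodendrocyte-like cells (-0.20) reversed with the gate, C4b in endothelial-like (0.49) and C3ar1 in excitatory neuron-like cells (-0.32) with stricter thresholds, and C4b in microglia-like cells (0.010) at resolution 0.3. With at least 2 summed UMIs of Cst7 and Itgax, the log2 excess of C1qa in these microglia-like cells was 0.57 (control) and 0.71 (tomatidine). It was 0.46 and 0.66 for C1qb and 0.37 and 0.62 for C1qc. In control cells it was 1.16 for C3ar1. For C5ar1 in control cells the ratio was 0.37, with an interval that covered 0 (-0.07 to 0.80).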

Other observations

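An unnamed cluster of 229 cells held both C1q and C4b UMIs. All markers on the microglia list and all on the oligodendrocyte list were raised in it. Whether its barcodes each held RNA of more than 1 cell was not tested. C1qa was 2187 and 2529 CPM in its control and tomatidine cells, C1qb 1941 and 2329, and C1qc 677 and 822, and C4b was 3798 and 2669 CPM. The log2 ratio of C4b in the cluster was -0.51 (-0.58 to -0.43) and that of C1qa was 0.21 (0.13 to 0.29). The unnamed clusters together held 11.5% and 14.5% of all C1qa UMIs, and none entered a comparison of classes.

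Choroid plexus-like cells, left out of the comparison for the 32 tomatidine cells, had C1qa at 83.4 and 16.5 CPM, C4b at 113 and 33.0 CPM and Serping1 at 23.1 and 35.4 CPM. Mural-like cells, 38 in each library, had C4b at 236 and 555 CPM and Serping1 at 89.3 and 110 CPM.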
